A study of Mus musculus with 8 samples.

Results

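The nuclear pore and nuclear transport genes examined here are the subunits of the pore (nucleoporins) and the soluble factors that carry protein and RNA through it. They were compared between 2 mouse cell lines, SThdh7/7 and SThdh111/111. Members were taken by gene symbol: the numbered Nup, Kpna, Kpnb, Xpo and Ipo families, Xpot, and the named genes Pom121, Ndc1, Tpr, Seh1l, Aaas, Ran, Ranbp1, Ranbp2, Rangap1, Rcc1 and Tnpo1. The rule found 49 genes of 18193 named on the array, measured by 133 probe sets of 45037. Tpr is not analysed here. No threshold on a value chose a member, but the group was proposed with the difference between these lines in view. The differences and calls below are therefore a description, without p-values.

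Both lines are known to derive from the embryonic striatum of mice with knock-in alleles of Htt, the huntingtin gene, and to be kept dividing by a temperature-sensitive large T antigen. The number in each name stands for the glutamine stretch of both Htt alleles: the short one in SThdh7/7, the control, and the long one, which models Huntington's disease, in SThdh111/111. Each group was 4 samples of total RNA from 1 line, 8 Affymetrix arrays in all. The labels give no treatment, temperature, passage or age. They do not say that samples were separate cultures, so errors measure only the spread between samples, and the Htt alleles and other differences between the lines cannot be told apart.

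As background, the pore is a ring-shaped assembly in the nuclear envelope. Its core is built from the Y complex (the outer rings) and the inner ring, anchored by membrane nucleoporins, and its channel is filled by proteins rich in phenylalanine-glycine repeats. Importin alpha adaptors bind nuclear localisation signals and are carried by importin beta (Kpnb1), while other importins and exportins bind cargo themselves. Direction is set by the small GTPase Ran, which is loaded with GTP in the nucleus by Rcc1 and made to hydrolyse it in the cytoplasm by Rangap1 with Ranbp1 and Ranbp2. Impaired transport and mislocalised Ran, Rangap1 and nucleoporins have been described in models of Huntington's disease.

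Members were mostly dimmer in SThdh111/111. With 1 probe set per gene (the one with the highest mean over all arrays), 24 of 49 members were called lower and 0 higher by limma at an adjusted p under 0.05, against a background of 15.9% of 17389 genes called lower and 13.1% called higher (29% in either direction). At an unadjusted p under 0.05, 31 members were lower and 1, Xpot, was higher. The share of all genes at that looser threshold was not counted, so the shares above are no background for it. The median difference (SThdh111/111 minus SThdh7/7, log2 intensity) was -0.34 over the members, against -0.09 over all genes. In 41 of 49 members the difference was negative, as in 56.9% of all genes. The 4 arrays of SThdh111/111 lay wholly below the 4 of SThdh7/7 for 25 members (background 17.3%) and wholly above them for 0 (background 14.3%). The background depends on brightness, as the shares above include many dim genes. With a filter at a mean log2 of 8, 26 of 45 members were called lower and 1 higher. Of all genes that passed it, 27.5% were called lower and 23.6% higher. Nothing is read from these shares, since this comparison was known when the group was chosen. Most shifts were modest: of the 24 members called at first 6 fell at least 2-fold and 12 less than 1.5-fold.

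The calls of the smaller shifts depended on the way of scaling. Quantile normalization kept all 24, with 26 members called lower against 15.3% of genes called lower and 13.4% called higher. Centring on array medians kept fewer. SThdh7/7 samples 1 and 2 stood apart, with median intensities of 173.9 and 174.0 against 136.2 to 147.0 on the other 6 arrays. Centring every array on its median moved the median of all genes from -0.09 to 0.06 and left 13 members called lower, against 8.34% of genes called lower and 13.6% called higher. These 13 were Nup107, Nup37, Nup62, Ndc1, Kpna2, Kpna3, Ipo5, Ipo13, Kpnb1, Rcc1, Ranbp1, Ran and Rangap1. Without samples 1 and 2 themselves 25 members were called lower, 20 of them shared with the 24 (Kpna1, Nup85, Pom121 and Rcc1 were lost). Of all genes 13.7% were then called lower and 12.9% higher. Without the intensity trend of the fit 18 remained, against 11.8% of genes called lower and 9.52% called higher. The calls of Aaas, Kpna1, Nup85, Nup88, Pom121 and Rcc1 were lost. With all probe sets of a gene averaged in place of the brightest, those of Ipo7, Nup160 and Pom121 were lost, that of Pom121 also with array weights and that of Nup85 with the sample number as a block. Differences below are as deposited, and 11 calls held under every alternative in which the gene was tested: those of Ran, Ranbp1, Kpna2, Kpna3, Kpnb1, Ipo5, Ipo13, Nup37, Nup62, Nup107 and Ndc1.

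Other genes were measured beside the members to describe the samples, against the 15.9% of all genes called lower and 13.1% called higher. Of 19 measured proliferation markers 18 fell and 0 rose, with a median difference of -1.54 (from -2.72 for Bub1 to -0.52 for Ccnb2, with Rrm2 at -1.86 and Mcm2 at -1.62), and their summed intensity ranged from 64756 to 70664 in SThdh7/7 and from 25422 to 27341 in SThdh111/111. All 6 fibroblast and mesenchymal markers rose, with sums of 19361 to 21586 and 90136 to 105148. Of the 9 measured markers of striatal projection neurons 2 rose (Penk and Foxp1), and Gad1, Ppp1r1b and Drd1 lay below the floor on all 8 arrays. That floor is the brightness of bacterial control probe sets, at a log2 intensity of 7.02. The 95th percentile of these controls was 98.7 to 130.0 (intensity) on the SThdh7/7 arrays. On the SThdh111/111 arrays it was lower, at 72.0 to 77.5. The part of any of these in the differences of pore and transport genes was not tested. In such bulk samples fewer cells of a type and less RNA per cell cannot be told apart. The Htt gene had a mean of 9.13 ± 0.18 in SThdh7/7 against 8.71 ± 0.30 in SThdh111/111 (log2 intensity, SD, n = 4) and was not called. Of the marker lists of other cells, 3 of 5 neural progenitor markers fell and 0 rose, 1 of 7 general neuronal and 1 of 5 endothelial markers fell, 1 rose and 1 fell among 6 each for astrocytes and for microglia, and 0 of 3 measured oligodendrocyte markers were called.

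The start regions of 7 members that the results turn on are shown first, to allow their motifs to be set beside the values. They are the 250 bases before the RefSeq start of the 4 Ran cycle genes, of the import factors Kpna2 and Ipo5 and of the channel nucleoporin Nup62 (build GRCm38.p6, 5′ to 3′ along the gene). The windows lie at chr5:129019906-129020155 (plus strand) for Ran, chr16:18248695-18248944 (minus strand) for Ranbp1, chr15:81729920-81730169 (minus strand) for Rangap1 and chr4:132345751-132346000 (minus strand) for Rcc1. Those of the others are chr11:106999526-106999775 (minus strand) for Kpna2, chr14:120910944-120911193 (plus strand) for Ipo5 (the first of its 2 windows) and chr7:44815838-44816087 (plus strand) for Nup62. Capitals mark every match, on either strand, to one of the motifs given after the sequences.
Ran: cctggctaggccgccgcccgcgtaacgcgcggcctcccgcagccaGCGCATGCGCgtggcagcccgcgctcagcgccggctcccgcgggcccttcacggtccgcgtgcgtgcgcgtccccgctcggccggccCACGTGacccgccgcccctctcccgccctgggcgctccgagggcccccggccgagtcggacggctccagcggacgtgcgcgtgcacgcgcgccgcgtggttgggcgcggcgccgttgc
Ranbp1: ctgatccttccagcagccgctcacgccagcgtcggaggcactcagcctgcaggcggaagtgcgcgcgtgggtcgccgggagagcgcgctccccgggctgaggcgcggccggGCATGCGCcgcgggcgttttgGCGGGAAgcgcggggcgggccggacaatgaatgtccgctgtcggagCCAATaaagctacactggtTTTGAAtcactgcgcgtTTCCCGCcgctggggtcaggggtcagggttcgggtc
Rangap1: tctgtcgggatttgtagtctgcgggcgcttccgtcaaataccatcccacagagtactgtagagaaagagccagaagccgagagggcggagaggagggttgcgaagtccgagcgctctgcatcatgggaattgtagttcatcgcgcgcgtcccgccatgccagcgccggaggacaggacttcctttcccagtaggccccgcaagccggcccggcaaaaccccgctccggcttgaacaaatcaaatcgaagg
Rcc1: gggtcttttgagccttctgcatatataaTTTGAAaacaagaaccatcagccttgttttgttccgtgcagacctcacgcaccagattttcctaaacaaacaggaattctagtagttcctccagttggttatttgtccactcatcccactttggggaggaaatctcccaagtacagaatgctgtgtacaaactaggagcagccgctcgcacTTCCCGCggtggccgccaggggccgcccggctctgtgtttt
Kpna2: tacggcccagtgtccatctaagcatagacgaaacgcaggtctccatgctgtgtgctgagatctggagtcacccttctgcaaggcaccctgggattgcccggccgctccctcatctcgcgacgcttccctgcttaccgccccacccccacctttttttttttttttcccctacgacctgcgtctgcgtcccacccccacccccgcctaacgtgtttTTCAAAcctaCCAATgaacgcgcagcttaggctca
Ipo5: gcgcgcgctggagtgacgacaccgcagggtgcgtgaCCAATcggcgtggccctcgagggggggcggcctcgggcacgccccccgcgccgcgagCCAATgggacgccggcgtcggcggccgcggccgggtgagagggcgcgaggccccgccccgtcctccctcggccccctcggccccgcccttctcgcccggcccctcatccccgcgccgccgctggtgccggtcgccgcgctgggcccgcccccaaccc
Nup62: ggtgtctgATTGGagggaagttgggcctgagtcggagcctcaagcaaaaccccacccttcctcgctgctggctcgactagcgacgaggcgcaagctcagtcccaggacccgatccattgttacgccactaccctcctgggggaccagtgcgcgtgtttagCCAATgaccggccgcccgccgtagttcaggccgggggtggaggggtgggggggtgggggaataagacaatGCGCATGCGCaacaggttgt

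The motifs searched were the CCAAT box (CCAAT, bound by NF-Y), the E-box (CACGTG, bound by MYC and related factors), an NRF1 core (GCATGCGC), the cAMP response element (TGACGTCA) and the cell cycle homology region (TTTGAA). An E2F core was also searched in 4 forms: the first was TTGGCGC, the next was TTCCCGC, a further form was TTCGCGC, and the last was TTGCCGC. Each was searched on both strands. The NRF1 core overlaps its own reverse complement where the longer palindrome is present, as in Ran and Nup62, and those are marked as 1 run of capitals. Windows were found for 40 of the 49 members, 46 windows in all, and for all genes there were 32851 windows. The Ranbp1 window held 2 E2F cores, a CCAAT box, an NRF1 core and a cell cycle homology region. In Kpna2 the cell cycle homology region, at positions -35 to -30, lay just before a CCAAT box at -25 to -21, counted from the start. Ran held an E-box and the NRF1 palindrome, and Rangap1 held none of the motifs. The NRF1 core was present in 13% of member windows and 2.26% of all windows, the E-box in 15.2% and 6.02%, the E2F core in 13% and 7.89%, the CCAAT box in 43.5% and 33.8%, the cell cycle homology region in 23.9% and 16%, and the cAMP response element in 4.35% and 1.55%. The windows printed are all of members called lower. In the 25 windows of members called lower and the 21 of those not called, the E-box was in 12% and 19%, the cAMP response element in 0% and 9.52%. The NRF1 core and the E2F core were each in 16% and 9.52%. The CCAAT box was in 48% and 38.1%, the cell cycle homology region in 32% and 14.3%. Some genes have 2 windows. Counted by gene, the CCAAT box was in 47.6% and 42.1% and the cell cycle homology region in 33.3% and 15.8%. These shares are descriptions of letters in the windows, not of binding.

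All 4 genes of the Ran cycle other than Ranbp2 fell in SThdh111/111 (against 15.9% of all genes), with a median difference of -0.98. Ran, the GTPase itself, measured 14.15, 14.27, 14.33 and 14.33 in SThdh7/7 samples 1 to 4 and 13.27, 13.38, 13.42 and 13.49 in SThdh111/111 samples 1 to 4 (log2 intensity, as for all values that follow). Every SThdh111/111 array lay below every SThdh7/7 array, and the level went from 14.27 ± 0.08 to 13.39 ± 0.09 (SD, n = 4), a difference of -0.88 ± 0.07 (SE) or 1.84-fold. Ran had 6 kept probe sets, 4 of them called lower. The brightest can match other transcripts by its name (_x_at), and the 1 without such a suffix fell by 1.15 on the log2 scale. The other called probe sets of Ran fell by 1.08 and 0.70 on the log2 scale, and the 2 that were not called differed by -0.29 and -0.75, the latter dim.

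Ranbp1, which binds Ran-GTP and aids its hydrolysis, had 1 probe set. It measured 12.89, 12.96, 13.02 and 12.88 in SThdh7/7 samples 1 to 4 and 11.75, 11.88, 11.84 and 11.99 in SThdh111/111 samples 1 to 4, a fall with no overlap (-1.07 ± 0.07, SE, 2.10-fold). Rangap1, the GTPase-activating protein, measured 10.35, 10.26, 10.16 and 10.05 in SThdh7/7 samples 1 to 4 and 9.54, 9.44, 9.51 and 9.46 in SThdh111/111 samples 1 to 4. The lines did not overlap for it either, and the difference was -0.72 ± 0.09 (SE). Of the 3 kept probe sets of Rangap1 2 were called lower, the second of them at -0.87. When probe sets named _x_at, _s_at or _a_at were left out, only the dimmest of the 3 remained. It differed by -0.24, and the call of Rangap1 was lost.

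Rcc1, the nucleotide exchange factor that charges Ran in the nucleus, gave the most negative fitted difference of the 49 members, with a wide spread in SThdh111/111. Its only probe set measured 9.26, 8.45, 8.77 and 8.65 in SThdh7/7 samples 1 to 4 and 7.78, 7.88, 5.27 and 6.0 in SThdh111/111 samples 1 to 4. Samples 1 and 2 of SThdh111/111 were clearly brighter than samples 3 and 4, which lay below the floor. With those set to the floor the difference was -1.36 or more in size, in place of the fitted -2.05 ± 0.50 (SE). The call was lost without SThdh7/7 samples 1 and 2 (difference -1.98) and without the intensity trend.

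**Figure D1:**
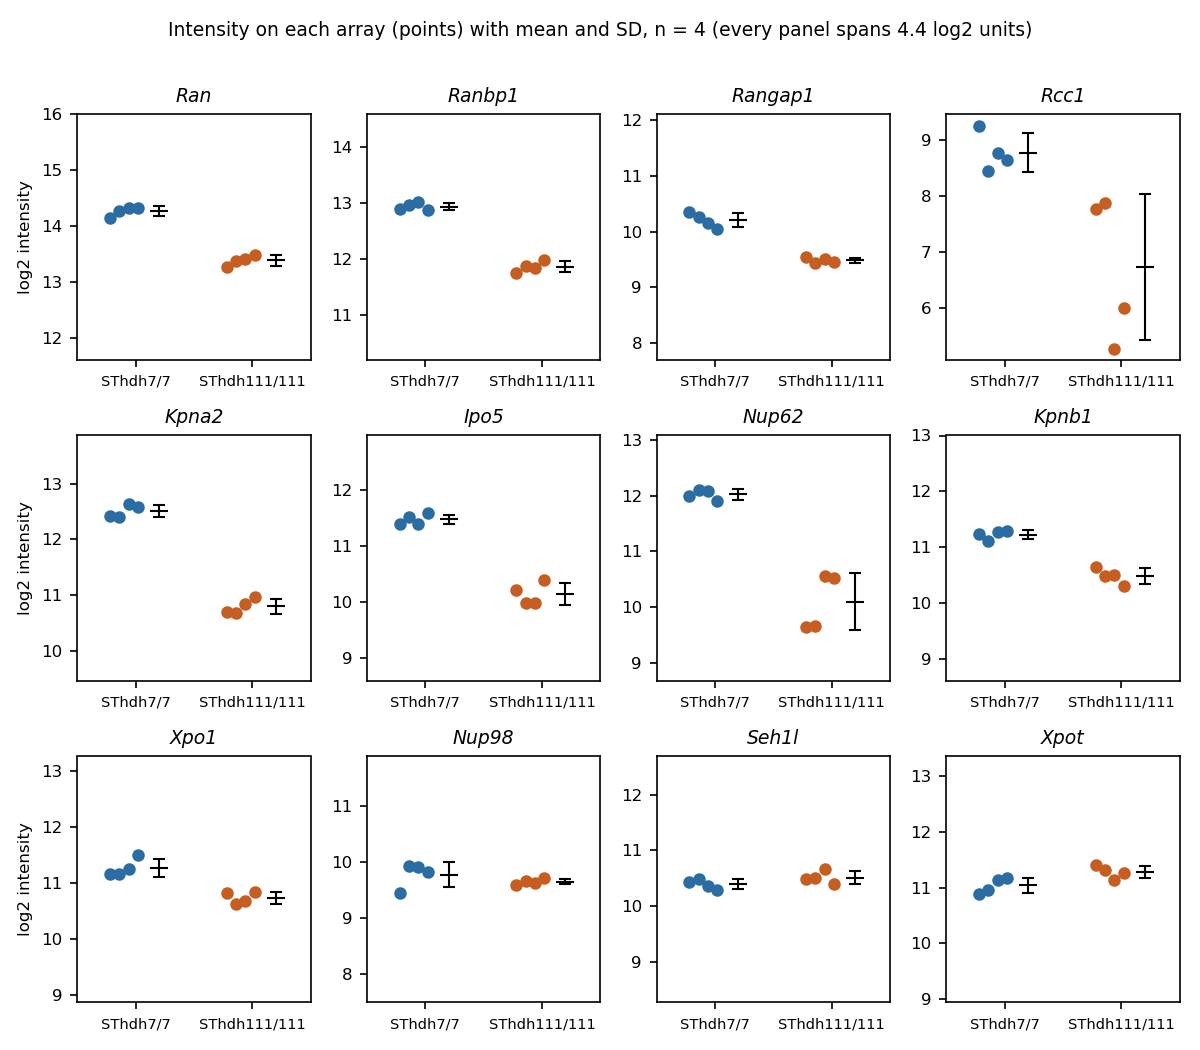
Log2 intensity of 12 member genes on every array, with points for the 4 samples of each line and a bar for mean and SD; each panel spans 4.4 log2 units. Ran, Ranbp1, Rangap1, Kpna2, Ipo5, Nup62, Kpnb1 and Xpo1 separate the lines without overlap, Rcc1 spreads from 5.27 to 7.88 in SThdh111/111, and Nup98, Seh1l and Xpot overlap.

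Among the importin alpha adaptors, which link cargo to importin beta, 3 of 6 fell (Kpna2, Kpna3 and Kpna1) and 0 rose. Over all genes 15.9% were called lower and 13.1% higher. Kpna2, an adaptor whose transcript is abundant in dividing cells, measured 12.42, 12.41, 12.63 and 12.58 in SThdh7/7 samples 1 to 4 and 10.71, 10.69, 10.84 and 10.97 in SThdh111/111 samples 1 to 4. The lines were far apart relative to their spread, from 12.51 ± 0.11 to 10.80 ± 0.13 (SD, n = 4), a 3.26-fold fall (-1.71 ± 0.08, SE). Kpna3 fell by 0.54 on the log2 scale at its brightest probe set and by 0.72 and 0.76 at its other ones. It measured 10.43, 10.29, 10.18 and 10.34 in SThdh7/7 samples 1 to 4 and 9.68, 9.79, 9.87 and 9.74 in SThdh111/111 samples 1 to 4, with no overlap. Kpna1 was called lower at -0.34 ± 0.10 (SE), a call lost after centring, without the intensity trend, without SThdh7/7 samples 1 and 2 and without SThdh111/111 sample 2 or sample 3. The remaining adaptors were not called: Kpna4 differed by -0.26, Kpna6 by 0.16, and Kpna7, an oocyte and embryo form, was below the floor on 6 of 8 arrays. Differences in this family thus ran from -1.71 for Kpna2 to 0.16 for Kpna6 among its members above the floor.

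Of the 9 import receptors of the importin beta family 5 fell and 0 rose, against 15.9% and 13.1% of all genes. Their median difference was -0.44. Ipo5, a receptor for ribosomal proteins and histones, measured 11.40, 11.51, 11.40 and 11.58 in SThdh7/7 samples 1 to 4 and 10.21, 9.98, 9.97 and 10.39 in SThdh111/111 samples 1 to 4. It fell 2.52-fold without overlap (-1.33 ± 0.10, SE), and a second bright probe set fell by 1.31 on the log2 scale. Ipo13, which can carry cargo both ways, went from 11.34 ± 0.09 to 10.42 ± 0.14 (SD, n = 4), a difference of -0.92 ± 0.08 (SE). Kpnb1, the importin beta that carries the alpha adaptors, measured 11.23, 11.11, 11.27 and 11.29 in SThdh7/7 samples 1 to 4 and 10.65, 10.49, 10.50 and 10.31 in SThdh111/111 samples 1 to 4. Its difference was -0.74 ± 0.08 (SE), and 3 of its 4 kept probe sets were called lower. Ipo9 and Ipo7 fell by 0.46 and 0.44 on the log2 scale, and both calls were lost after centring, where the differences were -0.31 and -0.29. Tnpo1, the receptor of proteins with proline-tyrosine signals, differed by -0.26, Ipo11 by -0.26, Ipo4 by -0.09 and Ipo8 by 0.16, none of them called.

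The median difference of the 6 exportins was -0.26. Of all genes 15.9% were called lower and 13.1% higher, and with the filter at a mean log2 of 8 these shares were 27.5% and 23.6%. Of the exportins 1 was called lower (16.7%) and 0 higher. That gene was Xpo1, the general exporter of proteins with leucine-rich signals, which measured 11.16, 11.16, 11.24 and 11.50 in SThdh7/7 samples 1 to 4 and 10.81, 10.62, 10.67 and 10.83 in SThdh111/111 samples 1 to 4. The lines did not overlap, the difference was -0.53 ± 0.09 (SE), and the other Xpo1 probe set fell by 0.48 on the log2 scale. After centring Xpo1 stood at -0.38 and was no longer called. Xpo4, Xpo5, Xpo6 and Xpo7 differed by -0.29, -0.27, -0.13 and -0.25. Xpot, the exporter of transfer RNA, was the member with the most positive difference among those above the floor. It measured 10.89, 10.95, 11.13 and 11.18 in SThdh7/7 samples 1 to 4 and 11.40, 11.31, 11.13 and 11.26 in SThdh111/111 samples 1 to 4, so the lines met at 11.13 to 11.18, and the difference of 0.24 ± 0.08 (SE) was not called. Xpot was called higher without SThdh7/7 sample 4 (0.28), without SThdh111/111 sample 3 (0.29) and with a filter at a mean log2 of 8. Its mean over all 4 probe sets was -0.14, with the dimmest, whose mean lay under the floor, at -0.67. The remaining ones differed by -0.10 and -0.04.

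**Figure D2:**
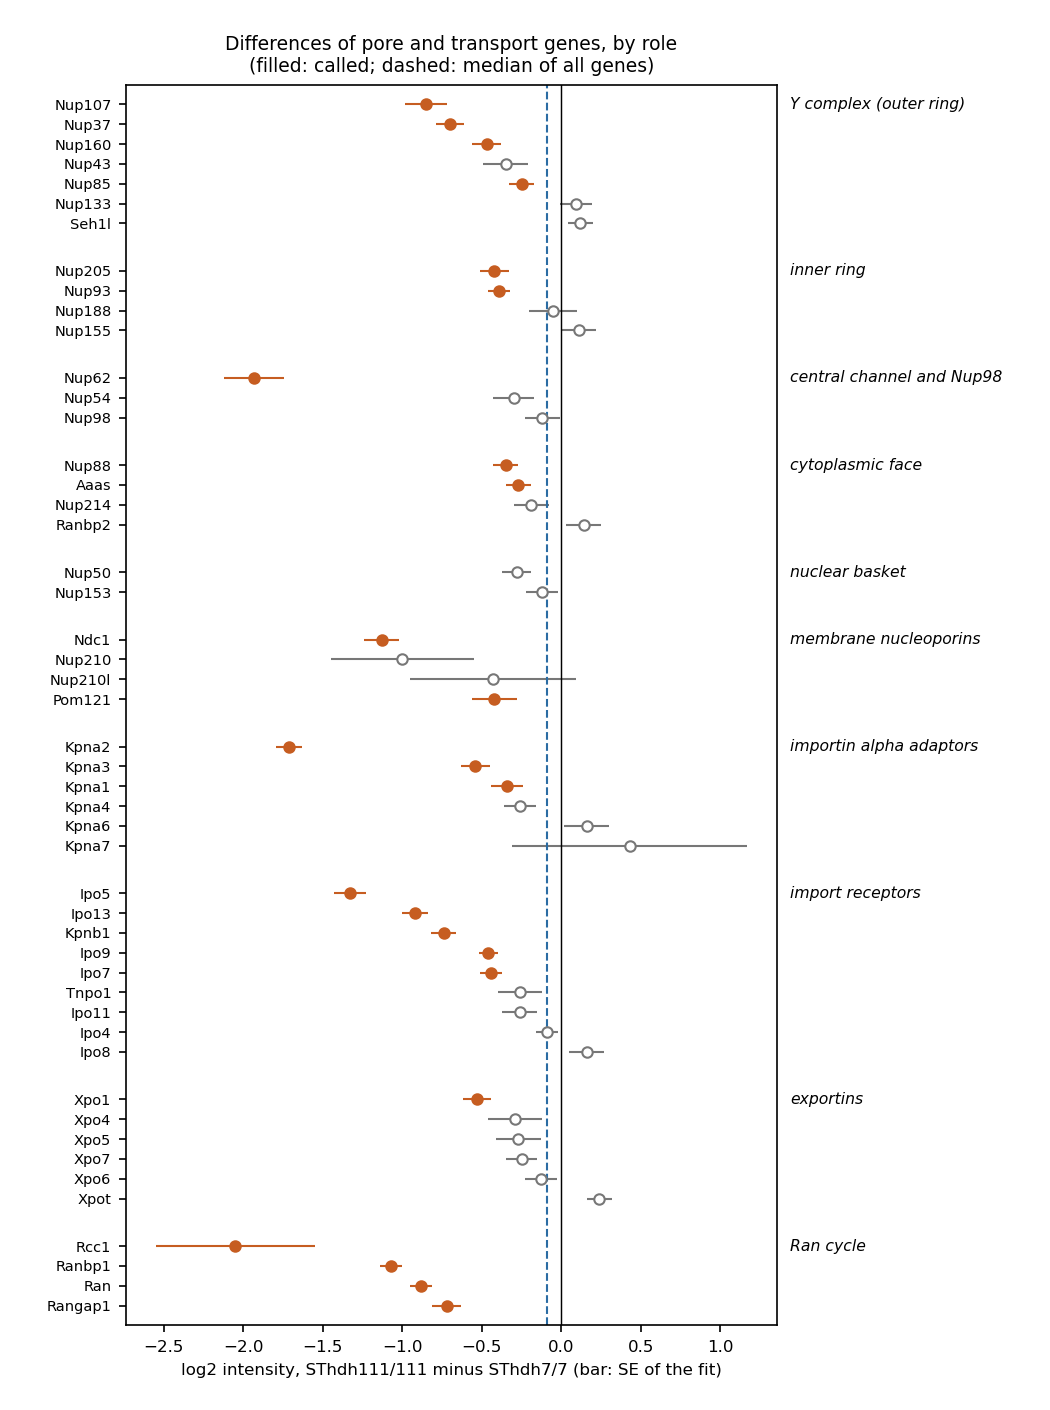
Difference in log2 intensity (SThdh111/111 minus SThdh7/7) for each of the 49 members at its brightest probe set, grouped by role, with bars for the SE of the fit; filled points were called and the dashed line is the median of all genes, -0.09. All 24 filled points lie below 0, from -2.05 for Rcc1 to -0.25 for Nup85, and all 4 Ran cycle genes are filled.

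In the pore itself, the Y complex had 4 of 7 members called lower and 0 higher, against 15.9% and 13.1% of all genes. Its median difference was -0.35. Nup107 measured 10.07, 9.92, 9.90 and 10.14 in SThdh7/7 samples 1 to 4 and 9.47, 9.14, 8.86 and 9.14 in SThdh111/111 samples 1 to 4. Its arrays did not overlap between lines, and the difference was -0.85 ± 0.13 (SE). Nup37 measured 10.78, 11.02, 10.73 and 10.70 in SThdh7/7 samples 1 to 4 and 10.05, 10.17, 10.17 and 10.04 in SThdh111/111 samples 1 to 4, a difference of -0.70 ± 0.09 (SE) with no overlap. Nup160 and Nup85, scaffold subunits of the same complex, fell by 0.47 and 0.25 on the log2 scale. Both calls were lost after centring, and that of Nup85 also in 6 of the 8 fits with 1 sample left out. Nup43 differed by -0.35 and was not called, while Nup133 and Seh1l were at 0.09 and 0.12. These 7 members ranged from -0.85 to 0.12, and Sec13, a subunit of the same complex outside the naming rule, is given with the neighbouring pathways.

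Seh1l, a subunit shared with a complex that regulates mTORC1, measured 10.43, 10.49, 10.37 and 10.29 in SThdh7/7 samples 1 to 4 and 10.49, 10.50, 10.67 and 10.40 in SThdh111/111 samples 1 to 4. The lines overlapped at this brightest probe set. Of its 7 kept probe sets 1 was called higher (0.41) and 0 lower, and the mean over all of them differed by -0.09. Nup133 had 6 kept probe sets and 0 calls.

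The inner ring had 2 of 4 members called lower (against 15.9% of all genes), Nup205 and Nup93, at differences of -0.42 ± 0.09 and -0.39 ± 0.07 (SE). For each the 4 arrays of one line were separate from the 4 of the other, but both calls were lost after centring, at -0.27 and -0.24. Nup188 and Nup155 differed by -0.05 and 0.11 at their brightest probe sets. Each had a dimmer probe set that was called lower, at -0.91 and -0.59, so the probe sets of these 2 genes did not give one value.

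Nup62, the repeat-rich protein of the central channel, measured 12.00, 12.10, 12.09 and 11.90 in SThdh7/7 samples 1 to 4 and 9.65, 9.67, 10.56 and 10.52 in SThdh111/111 samples 1 to 4 at its brightest probe set. The lines were far apart, and within SThdh111/111 samples 1 and 2 were lower than samples 3 and 4, a gap of a size not seen on its 3 other bright probe sets. The fall was 3.80-fold there (-1.93 ± 0.19, SE). That probe set has a suffix that marks possible matches to other transcripts, and the 3 other bright ones fell by 0.72, 0.78 and 0.69 on the log2 scale. All 5 kept Nup62 probe sets were called lower. Nup54, its partner in the channel, differed by -0.30 and was not called, with 1 of its 5 probe sets called higher at 0.69 and the others at -0.75 to -0.02. Nup98, a mobile repeat protein of both faces of the pore, measured 9.44, 9.93, 9.90 and 9.81 in SThdh7/7 samples 1 to 4 and 9.59, 9.65, 9.63 and 9.71 in SThdh111/111 samples 1 to 4. The lines overlapped and the difference of -0.12 ± 0.11 (SE) was not called. It was 0.03 after centring and 0.02 as a mean over its probe sets.

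At the cytoplasmic face Nup88 and Aaas were called lower, at -0.35 ± 0.08 and -0.27 ± 0.08 (SE), and both calls were lost after centring (-0.19 and -0.12) and without the intensity trend. Aaas, whose human counterpart is mutated in triple A syndrome, also lost its call without SThdh7/7 sample 3 or 4 and without SThdh111/111 sample 2 or 3. Nup214, the partner of Nup88, differed by -0.19, and Ranbp2, the SUMO ligase of the filaments that holds Rangap1 at the pore, by 0.14. Ranbp2 measured 9.76, 9.99, 10.04 and 9.88 in SThdh7/7 samples 1 to 4 and 10.28, 10.12, 10.02 and 9.81 in SThdh111/111 samples 1 to 4, so its arrays overlapped. Of the 2 nuclear basket genes 0 were called: Nup50 differed by -0.28 and Nup153 by -0.12.

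Of 4 membrane nucleoporins 2 fell, against 15.9% of all genes. Ndc1, which anchors the inner ring in the membrane, measured 9.56, 9.57, 9.72 and 9.73 in SThdh7/7 samples 1 to 4 and 8.41, 8.69, 8.49 and 8.47 in SThdh111/111 samples 1 to 4. The lines did not overlap, and it fell 2.19-fold (-1.13 ± 0.11, SE) at its brightest probe set and differed by -0.41 and -0.47, not called, at the others. Pom121 was called lower (-0.42 ± 0.14, SE), but the lines overlapped, and 5 of the 8 fits with 1 sample left out did not call it: those without SThdh7/7 sample 2 or 4 and those without SThdh111/111 sample 1, 3 or 4. Nup210 passed the floor in 2 of 4 samples of SThdh7/7 and in 0 of 4 of SThdh111/111, and Nup210l was below it on all 8.

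**Figure D3:**
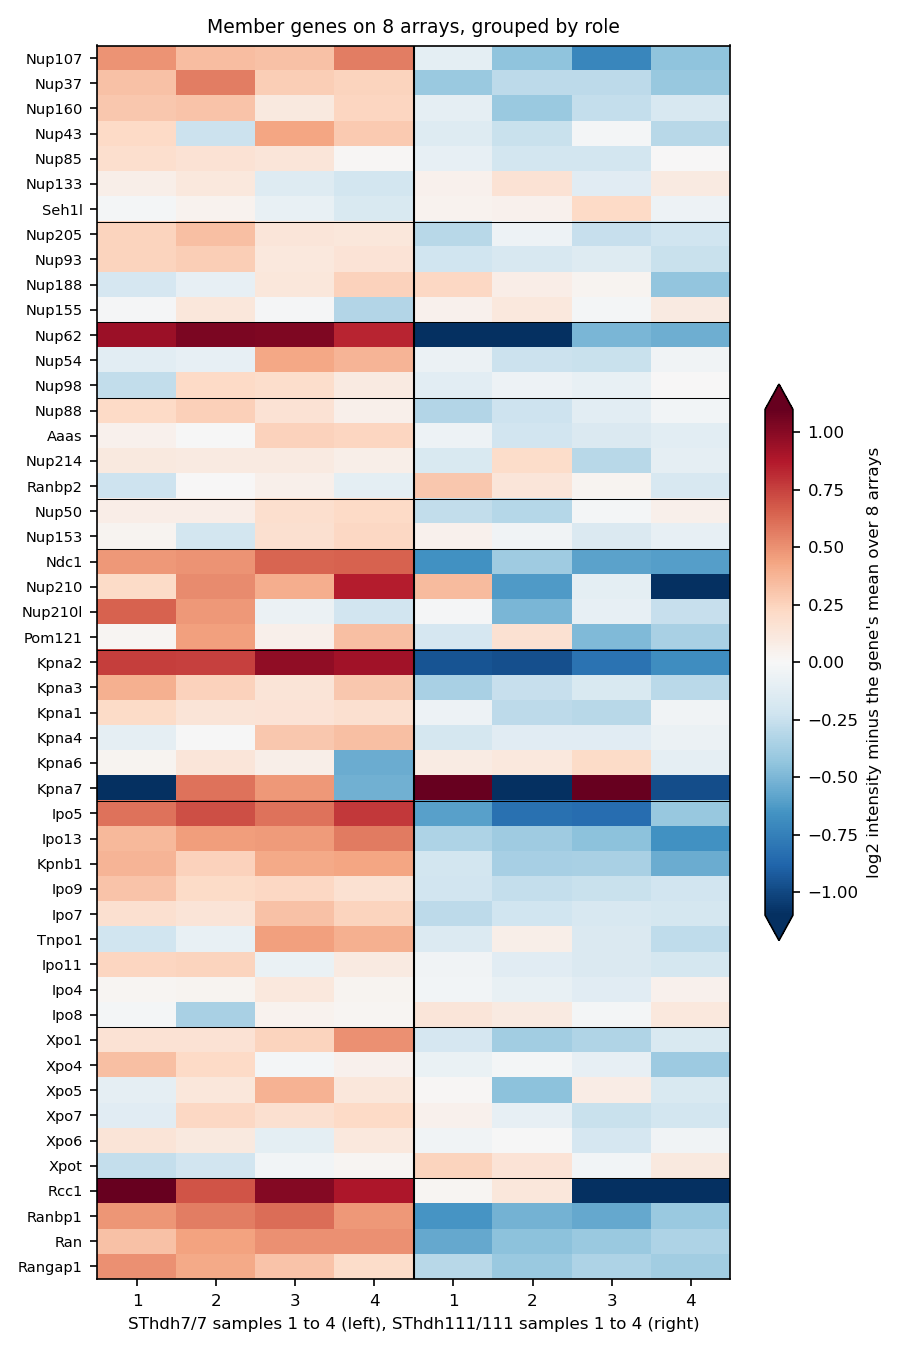
Log2 intensity of the 49 members on the 8 arrays, each gene centred on its own mean and grouped by role (colour scale cut at 1.1 in each direction). Array medians of the centred values lie from 0.19 to 0.22 in SThdh7/7 and from -0.22 to -0.11 in SThdh111/111, and Tnpo1, Nup54 and Kpna4 are paler in SThdh7/7 samples 1 and 2 than in samples 3 and 4.

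The arrays of a line were close to each other for most members. Over the 45 members above the floor on all 8 arrays, the median SD was 0.12 in SThdh7/7 and 0.11 in SThdh111/111. Within SThdh7/7 a few members split between samples 1 and 2 and samples 3 and 4, in both directions. Samples 3 and 4 were the higher ones for 27 of 49 members, and for 7291 of 17389 genes. The median (samples 3 and 4 minus samples 1 and 2) was 0.03 over the members and -0.07 over all genes. The same difference was -0.33 for Kpna6, -0.26 for Nup133 and for Xpo4, and -0.70 for Nup210l, which lay below the floor. Tnpo1 was higher by 0.57 in samples 3 and 4, Nup54 by 0.50, and Kpna4 and Nup43 by 0.37 each. Tnpo1, Nup54, Kpna4 and Nup43 were not called with all samples. Without samples 1 and 2 they were called lower, at -0.55, -0.55, -0.44 and -0.54, as was Xpo7 at -0.33.

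Probe sets of 1 gene gave a further view of the same arrays. Of the 131 kept probe sets of the members 49 were called lower and 2 higher, against 12.6% and 9.87% of all kept probe sets, or 22.4% in either direction. Of the 29 with a mean under the floor 1 was called, and of the 102 others 48 were called lower. The share of all probe sets above the floor was not counted. With the filter at a mean log2 of 8, 4474 of all 16651 probe sets were called lower and 3755 higher. Among the 36 members with 2 or more kept probe sets, 0 had calls in opposite directions and 5 had every probe set called lower (Nup62, Nup85, Kpna3, Ipo9 and Xpo1). A further 6 members were not called at the brightest probe set but had another that was called lower: Nup43, Nup188, Nup155, Kpna4, Tnpo1 and Ipo4.

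**Figure D4:**
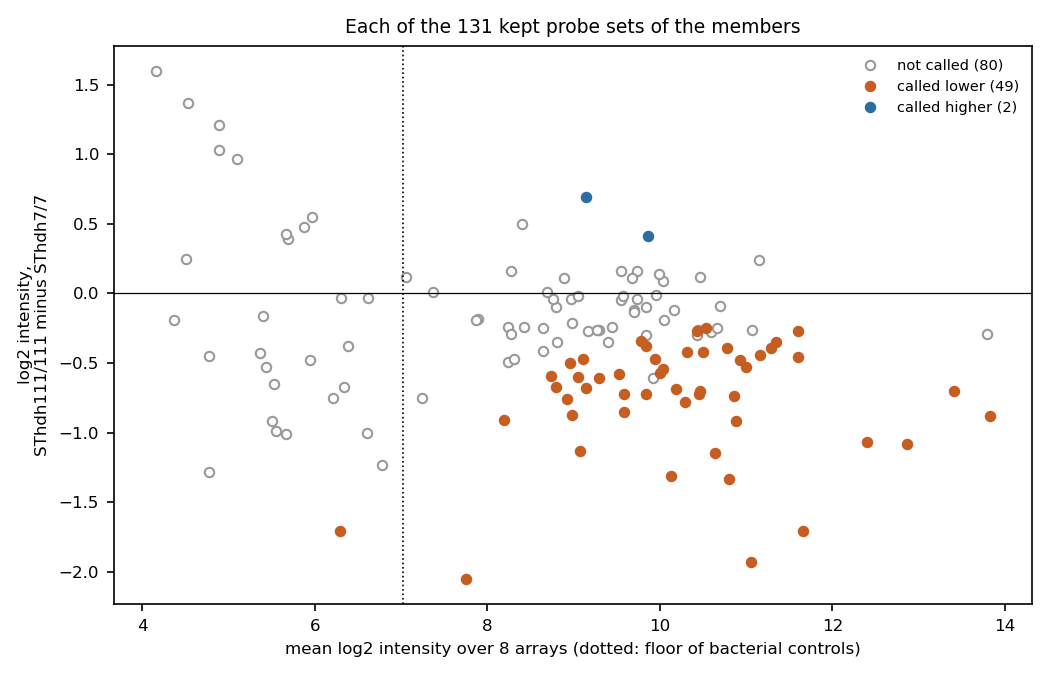
Difference in log2 intensity (SThdh111/111 minus SThdh7/7) against mean log2 intensity for each of the 131 kept probe sets of the members, with the floor as a dotted line. The 29 probe sets left of the floor scatter widely with 1 call, while the 102 to its right hold 48 calls below 0 and 2 above it, of Nup54 and Seh1l.

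Neighbouring pathways were read from lists drawn up beside the members. Of 19 measured pore, transport and Ranbp-named genes outside the naming rule 5 fell and 3 rose (median difference -0.12), against the 15.9% and 13.1% of all genes. Cse1l, which returns importin alpha to the cytoplasm, fell by 0.45 on the log2 scale and Ranbp9 by 0.60, while the Y complex subunit Sec13 rose by 0.25 ± 0.08 (SE) and Akirin2, an adaptor for nuclear import of proteasomes, by 0.39 ± 0.06 (SE). Of 19 messenger RNA export genes 4 fell and 2 rose (median -0.11). The helicase gene Ddx39a fell by 0.92 on the log2 scale and Alyref, an export adaptor, by 0.67, while Eny2 and Poldip3 rose by 0.35 ± 0.09 and 0.24 ± 0.06 (SE).

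The nuclear envelope list moved both ways, with 7 of 17 lower and 2 higher (median -0.06), against 15.9% and 13.1% of all genes. Tmpo, which encodes lamina-associated polypeptide 2, fell from 11.96 ± 0.11 to 10.67 ± 0.14 (SD, n = 4), and the lamin B receptor gene Lbr from 10.93 ± 0.16 to 9.66 ± 0.17. Tor1aip1 and Tor1aip2, partners of torsins in the nuclear membrane, rose by 1.01 ± 0.10 and 0.80 ± 0.10 (SE).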

How the data were processed

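Total RNA (Tri-reagent, RNeasy columns) was labelled by the Affymetrix protocol and hybridised to its mouse arrays, per the labels' protocols. The deposited table holds 1 linear intensity per probe set and array. GCRMA is the only tool named in the submitters' processing notes, without a version, but the authors' intensity values lack its form: the mean trimmed by 2% was 500 on all 8 arrays. The tool behind them is therefore unsettled, and dim values are noisy. The number of arrays limits the precision.

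Intensities were taken to log2. The 64 control probe sets were left out, and 41409 probe sets with a log2 of at least 4 on at least 4 of 8 arrays were kept, 131 of the 133 of the members and at least 1 for each of the 49 genes. Genes were named from the platform annotation (symbols updated to GRCm38.p6 by Entrez number): 34945 probe sets had 1 gene, 932 several and 9160 none. A further 3 probe sets match a member and another gene and were left out. The lines were compared in limma 3.58.1 (R 4.3.3; lmFit, then eBayes with trend), two-sided, Benjamini-Hochberg adjusted over all kept probe sets, called at an adjusted p under 0.05, and checked on simulated data. Each gene is given by its probe set with the highest mean. The floor is the highest, over arrays, of the 95th percentile among 27 bacterial controls. Members, lists and tests were chosen with earlier results of these data known. Genes were named by rule: in each role the 2 called members of lowest adjusted p each way, the 5 largest differences in each direction with a line wholly above the floor, the Ran cycle, genes whose probe sets were called in opposite directions (0 found), Kpna2, Kpnb1, Xpo1, Nup62 and Nup98, Htt, and in each other pathway list the 2 called genes of lowest adjusted p each way. The rest of the members are named to account for all, after their values were seen. Alternatives covered filters, scaling, trend, array weights, probe set choice, the replicate block and samples left out. Start regions are RefSeq's (GRCm38.p6).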

Additional observations from a re-analysis of the deposited data

Results flagged for a closer look

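In 7 of 98 groups of 4 arrays (49 members, 2 lines) 1 sample lay far from the other 3, where chance alone flags about 1 in 20. In SThdh7/7, sample 4 measured 9.19 for Kpna6 against 9.77 to 9.87 on the others, sample 2 measured 9.20 for Ipo8 against 9.53 to 9.59, and sample 1 measured 10.54 for Xpo7 against 10.84 to 10.89. Sample 3 measured 10.81 for Ipo4 against 10.71 to 10.72 and 9.60 for Xpo6 against 9.81 to 9.85. In SThdh111/111, sample 4 measured 7.87 for Xpo4 against 8.18 to 8.25, and sample 3 measured 9.52 for Xpo6 against 9.67 to 9.70. None of these 5 genes of the SThdh7/7 line, nor Xpo4, was called with all samples. Xpo7 was called lower once its far sample, SThdh7/7 sample 1, was left out, and also without SThdh111/111 sample 1.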

How the results depend on the processing

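The count of members called lower was 13 after centring on array medians (median difference -0.19), and 49 when each of the 131 kept probe sets was counted, where 2 were higher. Leaving out 1 sample at a time gave 21 to 26 members lower, 0 to 1 higher, medians of -0.34 to -0.32 and 8115 to 8754 called probe sets of all, against 9288. In those fits 14.2% to 14.9% of all genes were called lower and 11.3% to 12.8% higher. A filter at a mean log2 of 8 gave 1 member higher. Leaving out _x_at, _s_at and _a_at probe sets gave 6132 called probe sets, of 32876 tested. With the sample number as a replicate block 25 members were called lower, 23 of them shared, and 8828 probe sets were called. Of all genes 15% were then called lower and 12.6% higher. Samples share only a number (correlations of same-numbered deviations -0.014 to 0.009, best with its own number for 1 of 4). After centring, signs turned for 5 members, none called: Nup98 (0.03), Nup188 (0.10), Nup153 (0.03), Ipo4 (0.06) and Xpo6 (0.02). Among the 25 genes named by rule, the mean over probe sets turned Nup98 (0.02), Seh1l (-0.09), Kpna6 (-0.04), Ipo8 (-0.14) and Xpot (-0.14). For Seh1l, Ipo8 and Xpot that mean includes noisy probe sets under the floor, with differences of -0.92, -0.48 and -0.67. Of all called probe sets 56.0% were lower, and 39.5% after centring. The other counts and medians over members, under no filter, a filter at 6, quantile normalization, no trend, array weights and without SThdh7/7 samples 1 and 2, stayed within 1.5 times or 1 SD. Values under the floor limit Rcc1, Nup210, Nup210l and Kpna7.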
